A study of Mus musculus with 2 samples.

Results

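Myoglobin (Mb), the adult red cell globins (Hba-a1, Hba-a2, Hbb-bs, Hbb-bt), cytoglobin (Cygb) and the heme synthesis gene Alas2 were examined in long-read RNA sequencing of mouse heart. The members were taken by gene name from the deposited transcript tables, and the reads of a gene were summed over all of its models. All 7 names were found, among 15410 annotated genes with a read in either library. Hearts were taken at 18 to 20 months of age, with no treatment named, from males of B6CASTF1/J, a hybrid whose parents are the C57BL/6J and CAST/EiJ strains. The series has 1 group of 2 libraries, each from 2 µg of total RNA, so no contrast between conditions exists. The labels call them biological replicates 1 and 2 but give both the same donor identifier, so a difference between these libraries may be technical. The p-values allow for counting error alone and not for spread between libraries.

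Globins are small proteins that hold oxygen through a heme group. Myoglobin is the globin of heart and skeletal muscle cells, where it stores oxygen and passes it to mitochondria. Hemoglobin of adult red cells joins alpha chains, encoded by Hba-a1 and Hba-a2, with beta chains, encoded by Hbb-bs and Hbb-bt. Young red cells still carry globin RNA, so a heart that holds blood can hold this RNA as well. Cytoglobin is found in fibroblast-like cells of many tissues, and Alas2 encodes the red cell form of the first enzyme of heme synthesis.

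The libraries held 688861 mouse reads in replicate 1 and 1003999 in replicate 2, and levels are given as reads per 1000000 mouse reads (CPM). The 3 reads taken as the detection floor equal 4.36 CPM in the first and 2.99 CPM in the second library. Every interval is an exact (Clopper-Pearson) one at 95% and speaks to counting error alone. All 6 cardiomyocyte markers had reads, and 5 of the 7 skeletal muscle markers had none, with 1 read each on Tnnt3 and Tnni2. The summed level of atrial markers was 4252 CPM against 3196 CPM, and 3 of 5 tested, Nppa, Myl7 and Stard10, were lower in replicate 2 by the test between libraries described with the member differences. That test called 2% of all genes lower, and 35.3% in either direction among genes with a total of 500 reads or more, which include Nppa and Myl7. In tissue RNA, fewer cells of a type and less RNA per cell cannot be told apart.

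Mb had 3931 reads in replicate 1 and 6622 in replicate 2, which gave 6151 ± 629 CPM (SD, n = 2) and place 12 among all genes. It stood between Myl3, a myosin light chain, at 7114 ± 216 CPM and Cox6a2, a muscle subunit of cytochrome oxidase, at 6042 ± 1127 CPM. The spread of Cox6a2 covered the gap to Mb. The single Mb gene lies on chromosome 15, minus strand, from 77015487 to 77050670 in mm10.

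Hba-a1 followed with 2917 and 3893 reads, or 4056 ± 252 CPM, at place 23. Its levels of 4235 CPM and 3877 CPM lay below both Mb values. Its neighbours were Myl2, the ventricular myosin light chain, at 4218 ± 390 CPM and Atp5g1, an ATP synthase subunit, at 3887 ± 283 CPM, so a red cell globin was read at the level of abundant heart genes. Hba-a2 had 772 and 989 reads, or 1053 ± 95.9 CPM. The alpha genes are neighbours on chromosome 11, plus strand, with Hba-a1 at 32283511 to 32284465 and Hba-a2 at 32296489 to 32297298.

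Hbb-bs had 1325 and 1792 reads, or 1854 ± 98.0 CPM, and Hbb-bt had 221 and 297 reads, or 308 ± 17.7 CPM. Both beta genes lie on chromosome 7, minus strand, with Hbb-bt at 103812524 to 103813996 and Hbb-bs at 103826534 to 103828096. Hbb-bs stood between Ech1 at 1877 ± 157 CPM and Hspa8 at 1849 ± 544 CPM, Hba-a2 between Gpx4 and Ndufs3, and Hbb-bt between Ptgr2 and Iscu. The levels of the 4 globins did not overlap between genes in these libraries.

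Cygb (chromosome 11, 116645595 to 116654313, minus strand) had 56 and 52 reads, or 66.5 ± 20.9 CPM. Alas2 (chromosome X, 150547375 to 150570638, plus strand) had 58 and 53 reads, or 68.5 ± 22.2 CPM. The order of these 2 genes was within their spread. Cygb stood between Rnf13 and Golga4, and Alas2 between Afap1l1 and Eif4b. In the plot of levels by library, only they had intervals wide enough to see easily.

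A long read stands for 1 molecule, and short molecules can be favoured. As another scale, levels were also divided by the length of each gene's most-read annotated transcript. This raises short transcripts further, so it does not correct for such favouring. Per kb, Mb (1104 nt, transcript Mb-203) reached 5572 ± 569 CPM per kb. Hba-a1 (699 nt) reached 5803 ± 361 CPM per kb. The values of replicates 1 and 2 were 5169 and 5974 for Mb against 6058 and 5547 for Hba-a1. With these annotated lengths the order of this pair differed between the libraries. The annotated Hba-a1 transcript begins 161 bases before the RefSeq start of the gene, and a shorter length would raise its values. The order on this scale therefore depends on the annotated start. Hbb-bs stood at 2952 ± 156, Hba-a2 at 1900.5 ± 173, Hbb-bt at 439 ± 25.1, Alas2 at 33.6 ± 10.9 and Cygb at 28.5 ± 8.95 CPM per kb.

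The reads of Mb differed from those of every red cell globin in kind. The authors' tables give each read to a known transcript, to an incomplete model that is part of a known intron chain, to a genomic model that fits no transcript, or to a new spliced model. Of the Mb reads, 53.9% (interval 52.4 to 55.5) in replicate 1 and 60.0% (58.8 to 61.1) in replicate 2 were in models with 1 exon. Every annotated Mb transcript has at least 3 exons. For Hba-a1, Hba-a2, Hbb-bs and Hbb-bt the 1-exon share was between 0.771% and 4.04%. For Cygb it was 10.7% and 5.77%, and for Alas2 it was 0 of 58 reads and 1 of 53.

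**Figure D1:**
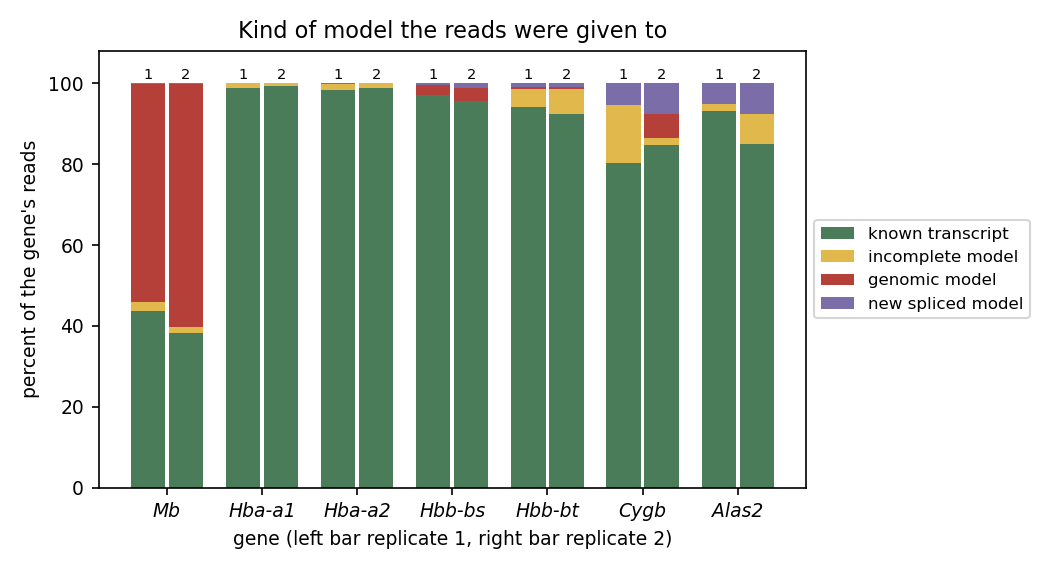
Percent of each gene's reads by kind of model, with the left bar for replicate 1 and the right bar for replicate 2. Genomic models hold most Mb reads in both libraries and few reads of any other gene.

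Nearly all of these Mb reads were in 1 genomic model per library. In replicate 1 it spanned 77015487 to 77015817 (331 nt) and held 2118 reads, and in replicate 2 it spanned 77015487 to 77015905 (419 nt) and held 3971 reads. A further 1-exon model of 89 nt held 2 reads in replicate 1. The stop codon of Mb-203 lies at 77015926 to 77015928, so all 3 models lay in the 3′ untranslated region and held 0 of the 465 coding bases. The last exon of Mb-203 runs from 77015491 to 77016072 and holds 147 coding bases including the stop codon, with 435 bases after it. The motif AATAAA, the usual signal for cleavage and polyadenylation, begins 21 bases before the annotated end.

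The reads counted as spliced had to cross an Mb intron, and most crossed the one before this last exon, from 77016073 to 77017575. The bases on both sides of that junction, coding bases 289 to 348 of Mb-203, are shown with the last exon in capitals, because this is the join that the 1-exon reads lack.
Mb-203 (chr15:77016072-77017576, minus strand, intron removed): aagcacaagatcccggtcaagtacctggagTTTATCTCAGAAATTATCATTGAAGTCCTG

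**Figure D2:**
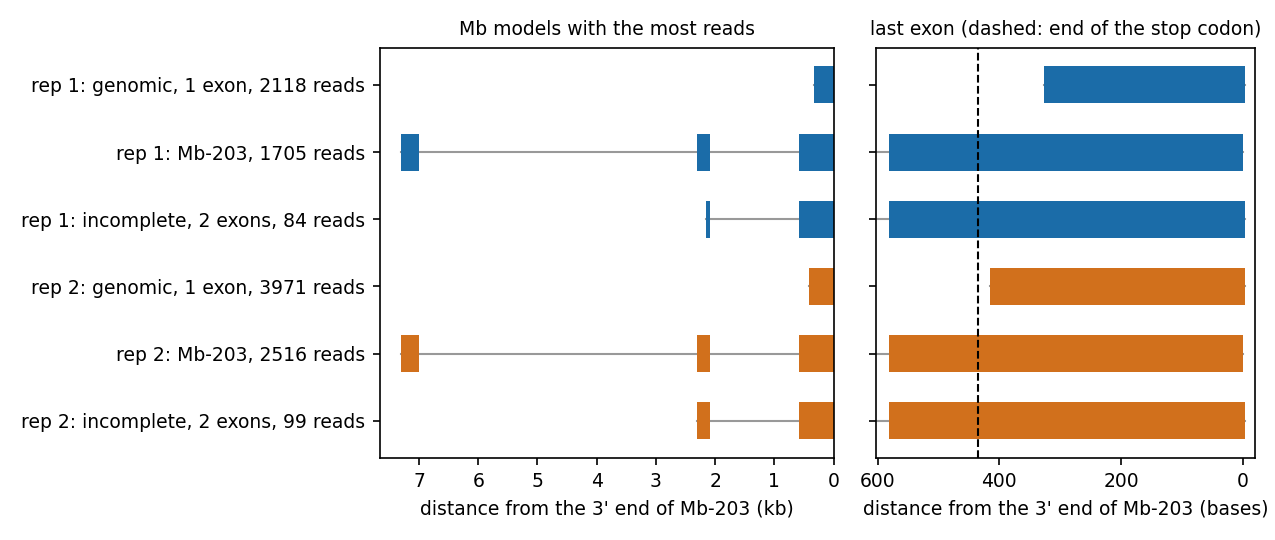
The 3 Mb models with the most reads in each library, drawn by distance from the 3′ end of Mb-203, in kb for the whole gene (left) and in bases for the last exon (right). Bars are exons, lines are introns and the dashed line marks the end of the stop codon. The genomic models stop short of it in both libraries.

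Mb-203 held 1705 and 2516 reads, which was 43.4% and 38.0% of all Mb reads. Among the other annotated transcripts, Mb-201 held 9 and 16 reads and Mb-206 held 7 and 2, while Mb-202, Mb-204 and Mb-205 had no reads. An incomplete 2-exon model held 84 reads in replicate 1 and 99 in replicate 2. New spliced models of Mb held 4 and 14 reads, or 0.102% and 0.211%. With incomplete and genomic models left out, Mb-203 took 98.8% of the reads.

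Many genes had 1-exon reads, and Mb lay in the upper tail rather than alone. Over 3417 genes whose annotated transcripts all have several exons and that had 20 reads or more per library, the median 1-exon share was 3.70% in replicate 1 and 4.70% in replicate 2. Mb took place 153 by mean share. Among the 181 of them with 500 reads or more per library it took place 10. Genes above it there, looked up after their values were seen, included Pln, the phospholamban gene, at 83.0% and 86.5%, and Esrra, a nuclear receptor of energy metabolism, at 94.5% and 97.1%. The share at Mb was higher in replicate 2 by Fisher's exact test adjusted over the 3417 genes (adjusted p = 6.88e-07), a test that called 0.761% of them. Of the 26 genes called, 25 were higher in replicate 2, and over all 3417 genes the pooled 1-exon share was 9.59% in replicate 1 and 12.2% in replicate 2.

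**Figure D3:**
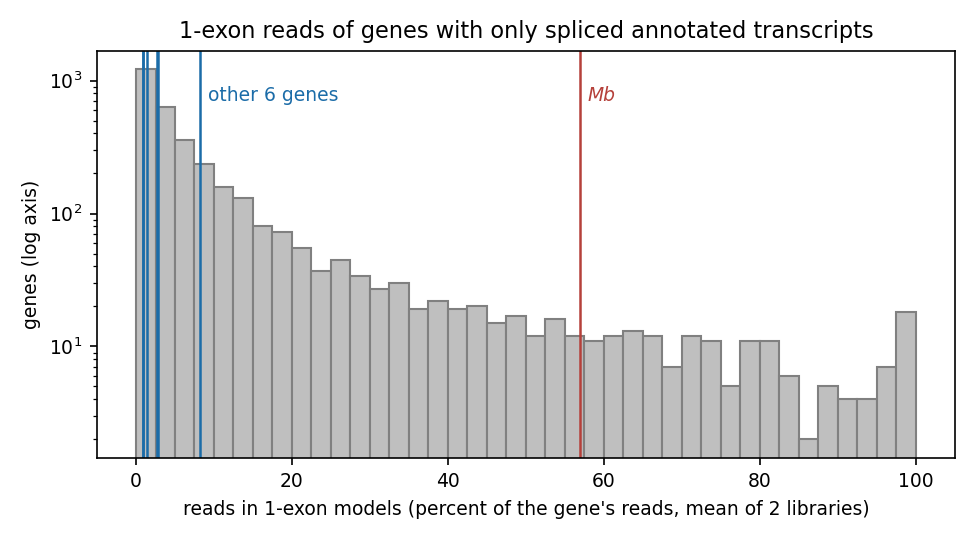
Number of genes (log axis) by the percent of their reads in 1-exon models, averaged over both libraries, for 3417 genes whose annotated transcripts all have several exons. Red marks Mb at 56.9% and blue marks the other 6 genes, all at 8.24% or less.

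Levels of the 7 genes were then compared between the libraries with an exact two-sided binomial test, adjusted by Benjamini-Hochberg over 8836 genes, all those with a total of 10 reads or more. Mb was higher in replicate 2 by 0.21 on the log2 scale, computed with 1 CPM added (interval without it 0.15 to 0.27, adjusted p = 9.38e-11). Hba-a1 fell by 0.13 in replicate 2 (interval -0.20 to -0.057, adjusted p = 0.0134). The test called 2 of the 7 members against 3.36% of all genes tested, with 1 in each direction against 1.36% higher and 2% lower. The test depends on read number. Among genes with a total of 500 reads or more, it called 35.3%, and 2 of the 5 members with that many reads. The call of Hba-a1 was lost with TMM factors (adjusted p = 0.485) and with DESeq2 size factors (adjusted p = 0.468).

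The other 5 were not called. Their log2 differences were -0.19 for Hba-a2 (adjusted p = 0.143), -0.11 for Hbb-bs (adjusted p = 0.367) and -0.12 for Hbb-bt (adjusted p = 0.862). Cygb differed by -0.64, with an interval from -1.22 to -0.080 (adjusted p = 0.289). Alas2 differed by -0.66, with an interval from -1.24 to -0.11 (adjusted p = 0.225). For these 2 genes the read number leaves a difference of more than 1 log2 unit possible. The median over the 7 members was -0.13, and over all genes tested it was -0.057.

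The difference at Mb was in its 1-exon reads. These gave 3078 and 3955 CPM, a log2 difference of 0.36 (interval 0.29 to 0.44). Spliced Mb reads gave 2629 CPM and 2640 CPM, a log2 difference of 0.0063 (interval -0.080 to 0.093). When only spliced reads of all genes were counted, Mb was no longer called (adjusted p = 0.603) and neither was Hba-a1 (adjusted p = 0.626). The totals were then spliced reads too, and the log2 differences were 0.073 and -0.057. Scaled to mouse reads, spliced Hba-a1 reads still differed by -0.12 (interval -0.19 to -0.054), so the lost call of Hba-a1 went with the changed total. Counting spliced reads only was chosen after the models had been seen. The spliced level of Hba-a1, 4192 CPM and 3848 CPM, was above that of Mb in both libraries, so the order of this pair was opposite to that of all reads.

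**Figure D4:**
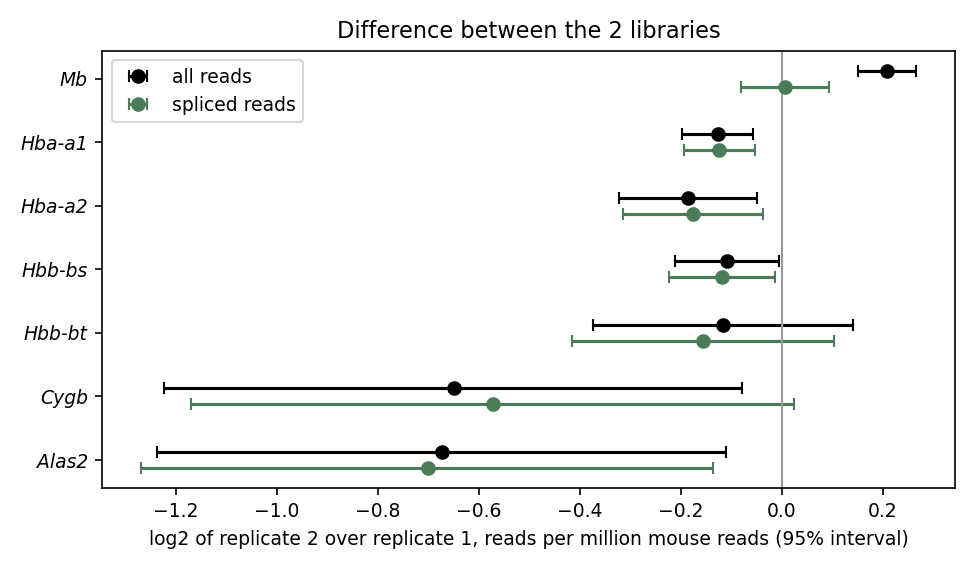
Log2 of replicate 2 over replicate 1 in reads per 1000000 mouse reads for each gene, from all reads (black) and from spliced reads (green), with exact 95% intervals. The Mb value moves from 0.21 to 0.0063, while the globin values stay below 0.

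Red cell globins together had 5235 and 6971 reads, or 7271 ± 464 CPM, which was 0.760% and 0.694% of mouse reads. There were 133 globin reads per 100 Mb reads in replicate 1 and 105 in replicate 2, a difference past Fisher's exact test (adjusted p = 9.41e-17 over 18 share comparisons). Against 100 spliced Mb reads the numbers were 289 and 263. With spliced reads alone for globins and Mb, Fisher's exact test gave an unadjusted p = 0.00738. With known transcripts alone it gave an unadjusted p = 0.00483. In both libraries the globin RNA outnumbered the Mb reads.

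The balance among globins was alike in both libraries within counting error. Alpha reads outnumbered beta reads by 2.39 to 1 in replicate 1 and 2.34 to 1 in replicate 2 (adjusted p = 0.741, Fisher's exact test). Hba-a1 gave 79.1% (77.7 to 80.4) and 79.7% (78.6 to 80.9) of the alpha reads (adjusted p = 0.716). Hbb-bs gave 85.7% (83.9 to 87.4) and 85.8% (84.2 to 87.3) of the beta reads (adjusted p = 1).

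How far these copies can be told apart is set by their sequences. The coding sequences of Hba-a1-201 and Hba-a2-201 are 429 bases each and differ at 1 base, C381T, counted from the A of the start codon and written from Hba-a1 to Hba-a2. It changes no amino acid. Their 3′ untranslated regions are identical over the 74 bases they share, and so are the 35 shared bases before the start codon. A spliced alpha read therefore carries 1 coding base that separates the genes in the annotation, apart from where its ends lie. The windows of coding bases 351 to 411 show that base in capitals.
Hba-a1-201 (chr11:32284313-32284373, plus strand): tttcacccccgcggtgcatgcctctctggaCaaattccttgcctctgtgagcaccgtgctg
Hba-a2-201 (chr11:32297130-32297190, plus strand): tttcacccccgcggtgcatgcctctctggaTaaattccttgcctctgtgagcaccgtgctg

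The beta copies also differ at 1 of 444 coding bases, C417T, written from Hbb-bs to Hbb-bt, with no amino acid change. Their windows run from coding base 387 to the end of the stop codon.
Hbb-bs-201 (chr7:103826665-103826722, minus strand): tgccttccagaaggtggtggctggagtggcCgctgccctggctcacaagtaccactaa
Hbb-bt-201 (chr7:103812656-103812713, minus strand): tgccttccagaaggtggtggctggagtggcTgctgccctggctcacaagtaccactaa
Outside the coding part the beta copies are easier to separate, since their 3′ untranslated regions of 131 and 132 bases were 70.1% identical in a global alignment. The mice carry CAST/EiJ copies beside the reference ones. Whether a CAST/EiJ base at C381T or C417T moved reads between copies was not tested.

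The main annotated transcript held most reads of each red cell globin, though its ends come from the annotation and were not measured. Hba-a1-201 held 97.7% and 98.3% of its gene's reads, Hba-a2-201 97.5% and 97.1%, Hbb-bs-201 95.2% and 93.2%, and Hbb-bt-201 94.1% and 92.3%. None of these top-model shares differed between libraries past the adjusted threshold (smallest adjusted p = 0.117, for Hbb-bs, Fisher's exact test).

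Annotated transcripts that keep an intron had few reads. Hba-a1-202 had 36 and 37 reads, Hba-a2-202 had 5 and 18, and Hbb-bs-202 had 25 and 42. The further annotated coding transcript of the beta gene, Hbb-bs-203, had none. The 1-exon models of the alpha genes cover their last exon and held 29 and 30 reads for Hba-a1 (203 nt) and 13 and 10 for Hba-a2 (219 nt). The 1-exon model of Hbb-bs (195 nt) was classed as genomic and held 33 and 57 reads, and that of Hbb-bt (261 nt) held 3 and 12. Unlike the Mb models, these reach into the coding part, by 129 bases for both alpha genes and Hbb-bt and 64 bases for Hbb-bs. A new 3-exon variant of Hbb-bs of 632 nt, 4 nt longer than the 628 nt of Hbb-bs-201, held 3 and 16 reads. A single Hba-a2 read in replicate 1 was placed in a model from 32283924 to 32297298, which starts inside Hba-a1 and ends at the end of Hba-a2.

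Incomplete models, a class that leaves out the genomic models, were a small share of Mb and of the red cell globins. With genomic models counted as incomplete, the Mb share averaged 58.8%. Over all mouse reads, incomplete models took 12.2% in replicate 1 and 14.3% in replicate 2. They took 2.16% and 1.56% of Mb reads and 1.06% and 0.771% of Hba-a1 reads. They took 1.68% and 1.11% of Hba-a2 reads, 0 of 1325 and 1 of 1792 Hbb-bs reads, and 4.52% and 6.40% of Hbb-bt reads. For Cygb the share was 14.3% (interval 6.38 to 26.2) and 1.92% (0.0487 to 10.3), which missed the adjusted threshold (adjusted p = 0.117). For Alas2 it was 1.72% and 7.55%.

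Cygb-201, the only annotated Cygb transcript, held 45 and 44 reads. A new 4-exon model of 2342 nt, against 2331 nt for Cygb-201, held 2 and 3 reads. Alas2-201 held 45 and 38 reads and Alas2-202 held 9 and 7, and the other 4 and 8 Alas2 reads were each in a model of 1 read. Over all 7 genes new models numbered 30 in replicate 1 and 39 in replicate 2.

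The deposited model ends could not be read as measured ends. Of the 69 new models, counted per library so that one found in both counts in each, 61 had both ends on an annotated exon end of their gene, and these held 6560 of 6571 reads in new models. The left and right ends of the Mb genomic models match annotated ends too, and the incomplete Mb model with the same intron began at 77017645 in replicate 1 and 77017798 in replicate 2. The difference of 331 nt against 419 nt at Mb is therefore a difference between models, and lengths of single reads were not analysed here.

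Start sites of the main models come from the annotation in the same way. The model of Hba-a1-201 begins 161 bases before the RefSeq start of Hba-a1, and Hbb-bt-201 begins 73 bases before that of Hbb-bt. In Hba-a1-201, Hbb-bt-201 and Mb-203 the motif TATAA, the core of a TATA box, lies inside the annotated first exon, 62, 82 and 87 bases before the start codon. RefSeq promoter sequences (GRCm38.p6) matched 6 of the 7 genes, all but Cygb. The windows of 250 bases before the starts of Hba-a1 and Hba-a2 were identical over the 247 bases they share, and those of Hbb-bs and Hbb-bt were 70.5% identical in a global alignment.

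Promoters of an alpha gene, a beta gene and Mb are shown because the first 2 belong to genes read together in red cells and the last to muscle. The 120 bases before the RefSeq start are given with searched motifs in capitals.
Hba-a2 (chr11:32296372-32296491, plus strand): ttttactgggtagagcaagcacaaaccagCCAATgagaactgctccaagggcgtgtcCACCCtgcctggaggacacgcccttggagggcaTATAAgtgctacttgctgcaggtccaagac
Hbb-bs (chr7:103827929-103828048, minus strand): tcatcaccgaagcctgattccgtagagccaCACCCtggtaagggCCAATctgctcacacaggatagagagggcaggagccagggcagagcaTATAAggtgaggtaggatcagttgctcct
Mb (chr15:77022788-77022907, minus strand): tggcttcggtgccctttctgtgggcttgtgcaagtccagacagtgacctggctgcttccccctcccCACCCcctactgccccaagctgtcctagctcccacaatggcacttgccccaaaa
Both strands were searched for TATAA and for the promoter elements CCAAT and CACCC. The search also covered AGATAA, the shorter GATAA that overlaps it, and a muscle element spelled AAAATAG. The motifs were chosen after the sequences had been seen. AAAATAG was in none of the 6 member windows, and the Mb window used held neither TATAA nor the shorter or longer form of GATAA. Mb had 3 promoter windows and each other matched member 1, and only the Mb window before the Mb-203 start is reported. TATAA begins at base 118 of Mb-203, outside that window, so its absence depends on the start used. In Hba-a1 and Hbb-bt the start used lies 161 and 73 bases inside the model, so their first-exon TATAA falls in the window. In Hba-a2 and Hbb-bs the start used lies 3 and 0 bases inside. In Hba-a2 TATAA begins 30 bases, CACCC 63 bases and CCAAT 91 bases before the start. In Hbb-bs they begin 29, 90 and 76 bases before it. In Mb, of these 3, CACCC begins 54 bases before the start and CCAAT lies 142 bases before it on the other strand, outside the stretch shown. GATAA was found 185 bases before the Hba-a2 start and, as AGATAA, 210 bases before the Hbb-bs start. Of 32851 promoter windows of 250 bases, 22.8% held TATAA, 33.8% CCAAT, 52.0% CACCC, 9.99% AGATAA, 22.6% GATAA and 3.89% AAAATAG.

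Other globins were nearly absent. Of 10 annotated genes of that list, Hbq1b had 1 read in replicate 1, and Hbb-y, Hbb-bh0, Hbb-bh1, Hbb-bh2, Hbb-bh3, Hba-x, Hbq1a, Ngb and Adgb had none. Hbb-y, Hbb-bh1 and Hba-x are embryonic globins, Ngb is the neural globin and Adgb a globin of testis. The names Hbb-b1 and Hbb-b2 match no gene of the annotation used.

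Red cell genes other than globins gave a mixed picture. Of 25 annotated red cell markers, 9 had no reads, among them Slc4a1, the anion exchanger of the red cell membrane, Epb42, Rhag, Ermap, Kel and Add2, and the erythroid transcription factors Klf1 and Gata1. The name Ahsp matches no gene of the annotation. The whole list summed to 684 and 695 CPM, against 7600 and 6943 CPM for the 4 globins. The leading members were Ank1, which ties the membrane skeleton to the membrane, at 360 ± 34.7 CPM, Bnip3l, a mitophagy receptor, at 159 ± 17.6 CPM, and Bpgm, an enzyme that sets hemoglobin's oxygen affinity, at 71.2 ± 2.14 CPM. Gypc had 35.2 ± 6.62 CPM, Sptb 33.0 ± 17.0 CPM and Rhd 7.34 ± 1.93 CPM. The known Ank1 reads were on short transcripts, Ank1-208 (1740 nt) with 171 and 242 reads and Ank1-211 (416 nt) with 8 and 18. Ank1 also encodes a small muscle form, so this list is not particular to red cells. None of the 7 tested members was called between the libraries.

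Platelet and neutrophil genes, the other blood markers, were led by Pf4 with 31 and 51 reads. S100a8, S100a9, Retnlg, Ngp and Gp9 had none, Itga2b had 2 and 0, and Ppbp had 1 and 0. The share of globin RNA that came from blood left in the tissue was not tested.

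All 8 heme synthesis genes had reads. Alas1, the housekeeping form of the first enzyme, led with 532 and 475 reads, or 623 ± 212 CPM. It was the 1 member of the list called between libraries, lower by 0.71 in replicate 2 on the log2 scale. The binomial test called 2% of all genes lower. Among genes with a total of 500 reads or more, which include Alas1, it called 35.3% in either direction. Alas2 reads were 58 and 53, so Alas1 was the more abundant of the pair in both libraries. Fech, whose enzyme inserts iron to form heme, had 227 ± 1.28 CPM, Urod 139 ± 17.7, Alad 139 ± 7.25 and Uros 32.8 ± 6.97 CPM.

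In heme and iron transport all 14 genes had reads and none of 12 tested was called. Slc48a1, a heme transporter of lysosomes, had 204 ± 30.2 CPM, Slc25a39, a mitochondrial carrier, 165 ± 15.7, Trf, the transferrin gene, 82.1 ± 13.3, and Abcb10 81.8 ± 6.87 CPM. In heme breakdown and scavenging, Hmox2, the constitutive heme oxygenase, led with 99.7 ± 17.1 CPM, while Hmox1, the inducible one, and Hpx had no reads. None of 4 tested genes was called. Of the oxygen sensing list, Egln1, an oxygen-dependent hydroxylase, had 724 ± 6.09 CPM, Vegfa 195 ± 11.3, Egln2 121 ± 19.4 and Epas1 94.4 ± 3.98 CPM, and none of 8 was called.

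Cell type markers beside the members were as follows. The cardiomyocyte list, led by Myh6 at 16201 ± 1124 CPM, had 1 of 6 genes, Tnnc1, higher and 2, Myh6 and Actc1, lower in replicate 2. These 3 belong to the genes with a total of 500 reads or more, of which 35.3% were called. The fibroblast list, relevant to Cygb, summed to 764 CPM in replicate 1 and 582 CPM in replicate 2. Col3a1 was lower in replicate 2, as were 2% of all genes by the same test, and none of the other 5 tested genes was called. The endothelial list summed to 240 and 314 CPM with 0 of 6 called. Cygb was at 81.3 CPM and 51.8 CPM in the same libraries, and the part of these cell types in its levels was not tested.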

How the data were processed

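Long reads of 2 heart libraries were analysed. The authors deposited whole-number read counts per transcript model, not normalized, and annotations of the models; per the labels the assembly is mm10, and known models carry GENCODE M21 identifiers, per the file headers. No source used here names the aligner or read filters. Counts were summed per gene over all models, and CPM used mouse reads without ERCC spike-ins (10668 and 15975 reads). The annotation and transcript sequences were of the same GENCODE release. Genes were compared by an exact binomial test and shares by Fisher's exact test (scipy 1.17.1), adjusted by Benjamini-Hochberg at 0.05. Both were first tried on simulated counts whose only random spread was counting error, so behaviour under further spread between libraries was not tested. edgeR 4.0.16 gave TMM factors and DESeq2 1.42.0 size factors as alternatives. Others changed the read class, count minimum, pseudocount and replicates. The chi-square between libraries was 2.58 per gene, above sampling noise, and both were kept. The p-values leave this further spread out, so they are smaller than ones that allowed for it would be. Named genes are the members, the most abundant 6 of each list, list genes without reads, and neighbours by level. Members and lists were chosen with earlier results of these data known. Some list genes that this rule names are left out of the text.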

Additional observations from a re-analysis of the deposited data

How the results depend on the processing

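Mb kept its call under 8 of 10 alternatives and lost it with known transcripts only (0.075, adjusted p = 0.56) and with spliced reads only (0.073). The pseudocount does not enter the binomial test, so changing it could not change a call. For the members, the count minimum could act only through the adjustment for the number of genes. Hba-a1 lost its call with TMM factors (-0.065), DESeq2 size factors (-0.067), known transcripts only (-0.062) and spliced reads only (-0.057). Hba-a2 passed when scaled to spike-in reads (-0.22, adjusted p = 0.0352). The 7 members kept their direction under all 10 alternatives, and Hbb-bs, Hbb-bt, Cygb and Alas2 were called under none. Members called numbered 1 with TMM and 1 with DESeq2 factors, and 0 with known or with spliced reads only, where the binomial test gave 1 member an unadjusted p under 0.05 in each case. Of all genes 297 were called, 40.4% of them higher in replicate 2, against 57.5% with TMM, 57.0% with DESeq2 factors and 33.0% scaled to spike-ins, and 196 genes were called with spliced reads only.

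Levels with known transcripts only, per 1000000 known reads, were 3551 for Mb, 5676 for Hba-a1, 1465 for Hba-a2, 2524 for Hbb-bs and 406 for Hbb-bt. With spliced reads only, per 1000000 spliced reads, they were 3217, 4904, 1266, 2198 and 366 in the same order. Per kb of transcript they were 5803 for Hba-a1, 1900.5 for Hba-a2, 2952 for Hbb-bs, 439 for Hbb-bt, 28.5 for Cygb and 33.6 for Alas2. Globin reads per 100 Mb reads averaged 119, against 284 with known transcripts and 272 with spliced reads. With known transcripts only the alpha to beta ratio was 2.44 and the Hbb-bs share 86.1%. Without incomplete and genomic models the top model took 98.8% of Mb, 98.9% of Hba-a1, 98.7% of Hba-a2, 97.0% of Hbb-bs, 99.0% of Hbb-bt and 92.7% of Cygb reads. With genomic models counted as incomplete, the incomplete share was 58.8% for Mb and 2.86% for Hbb-bs. With 2 libraries, leaving one out gives the other's value, printed in the report, and says nothing of stability. No paired analysis was possible because there is 1 group. Depth limits Cygb and Alas2, and a test between libraries cannot leave one out.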
